A study of Mus musculus with 8 samples.

Results

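miR-221 and miR-222 are a pair of microRNAs (miRNAs) that share a seed and are encoded side by side on the X chromosome. They were taken as the array entries named exactly mmu-miR-221 and mmu-miR-222, which are 2 of the 650 miRNA names (611 from mouse, 39 from herpesviruses) on the array. Their lung signal was compared between female C57BL/6 Bom Tac mice that received Printex 90, a commercial carbon black nanoparticle, and female mice of the same strain that received the vehicle, nanopure water. The mice were dams: the particles were instilled into the trachea in 4 doses of 0.067 mg on days 7, 10, 15 and 18 of gestation, 0.268 mg in total. The same days of gestation are recorded for the vehicle controls. Lungs were collected at weaning, 26 to 27 days after exposure, and each group had 4 one-colour (Cy3) arrays. The ages of the mice are not stated in the labels. Nor do these say whether an array holds the RNA of 1 mouse or of pooled lungs, so the p-values measure only the spread between these samples.

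miRNAs are short RNAs that pair through their seed, bases 2 to 8, with target messenger RNAs and lower their translation or stability. miR-221 and miR-222 are known to be cut from a shared primary transcript and to repress the cell cycle inhibitor Cdkn1b (p27) and the receptor tyrosine kinase Kit. In blood vessels they are known as regulators of both layers of the wall: in endothelium they restrain Kit-dependent growth and tube formation, and in vascular smooth muscle they favour proliferation after injury.

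The mature strands are shown first because the shared seed is what joins the pair. The capitals mark the seed, and the sequences and positions are those of RefSeq on GRCm38.p6, since the files name no genome build. Both array names were matched to this table through the guide strand, which carries the suffix -3p in current naming. The array names carry no arm suffix, and the probe sequences were not used here. Of 1679 mature RefSeq names 3 have this seed, and the third, miR-1928, is not among the names on the array, so it was not analysed here.
miR-221-3p: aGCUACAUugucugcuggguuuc
miR-222-3p: aGCUACAUcuggcuacugggucu
miR-1928: aGCUACAUugccagcuc

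miR-221-3p and miR-222-3p are both 23 bases long and identical over the first 8 bases. Of the other 15 positions 3 hold the same letter, so 11 of 23 positions (47.8%) are the same without gaps. The longest run they share beyond the seed region is 6 bases, cugggu, which begins at base 15 of miR-221-3p and at base 16 of miR-222-3p. A target site that pairs with the seed of either reads AUGUAGC. The pair thus shares its seed match, while the 3′ portions differ.

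The hairpins are shown with the mature 3p strand in capitals, because the array entries were taken as this arm from their names. Both lie on the minus strand, Mir221 at chrX:19146294-19146388 and Mir222 at chrX:19146893-19146971, with 504 bases between them. On that strand Mir222 comes first in the direction of transcription. No other gene of the RefSeq table overlaps their span, so both are intergenic there. The mature strand occupies bases 60 to 82 of the 95-base Mir221 hairpin and bases 49 to 71 of the 79-base Mir222 hairpin. The 5p strands were not analysed here.
Mir221 hairpin: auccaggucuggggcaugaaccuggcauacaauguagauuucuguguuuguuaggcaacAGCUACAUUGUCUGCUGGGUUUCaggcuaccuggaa
Mir222 hairpin: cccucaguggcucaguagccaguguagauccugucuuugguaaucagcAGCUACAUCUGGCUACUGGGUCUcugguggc

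Signals below are intensities divided by the 75th percentile of the array's mouse miRNAs detected on all 8 arrays, so 1 means equal to that percentile. Each array detected 248 to 283 mouse miRNAs. Of these, 240 were common to all 8 arrays, and the 268 found on at least 4 were tested. All 8 arrays shared 1 slide, with the controls in row 1 and the Printex 90 arrays in row 2, so slide row and group cannot be told apart. Lung character was checked with the endothelial miR-126-3p and the 5 epithelial miRNAs of the miR-200 family, and all 6 were detected on all arrays. Of the 39 herpesvirus miRNAs, which serve as background, 3 to 4 counted as detected on each array. The brightest of these, mghv-miR-M1-2, measured 0.241 ± 0.0258 in controls and 0.241 ± 0.0304 after Printex 90 (SD, n = 4 each), and specificity at signals of this size, which include those of miR-222, is not shown by detection.

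Both miRNAs were detected in every lung sample, and neither differed between Printex 90 and vehicle beyond the spread between arrays. The signal after Printex 90 was 0.979 times that of controls for miR-221 (95% interval 0.888 to 1.08) and 0.947 times for miR-222 (0.863 to 1.04). The sign was not stable under other scalings, as given below. In whole lung RNA, fewer cells of a type and less of the miRNA per cell cannot be told apart.

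miR-221 measured 0.517, 0.484, 0.460 and 0.521 on vehicle control replicates 1 to 4 and 0.466, 0.521, 0.498 and 0.455 on Printex 90 replicates 1 to 4. The groups overlapped over almost their whole range, with the high arrays (vehicle control 1 and 4, Printex 90 replicate 2) and the low ones (vehicle control 3, Printex 90 replicates 1 and 4) divided between both. The means were 0.496 ± 0.0287 in controls and 0.485 ± 0.0298 after Printex 90 (SD, n = 4 each). The log2 difference (Printex 90 minus control) was -0.031 (SE 0.059, limma adjusted p = 0.850), and the exact permutation p was 0.629, 2-sided. Of the 4 Printex 90 arrays 2 lay below the control mean.

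miR-222 measured 0.276, 0.241, 0.241 and 0.231 on vehicle control replicates 1 to 4 and 0.236, 0.235, 0.237 and 0.226 on Printex 90 replicates 1 to 4. Vehicle control replicate 1 stood above the other 7 arrays, and vehicle control replicate 4 fell inside the range of the Printex 90 arrays, so the groups overlapped. The means were 0.247 ± 0.0197 in controls and 0.234 ± 0.00517 after Printex 90 (SD, n = 4 each). The log2 difference was -0.078 (SE 0.056, limma adjusted p = 0.724), with all 4 Printex 90 arrays below the control mean (exact permutation p = 0.229, 2-sided). Without vehicle control replicate 1 it was -0.024 (limma adjusted p = 0.871).

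**Figure D1:**
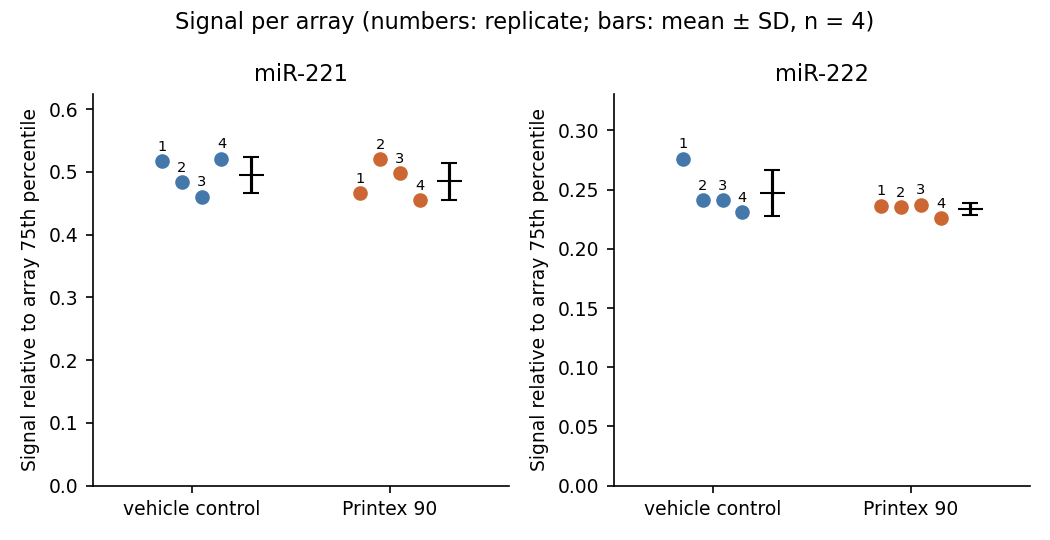
Signal of miR-221 (left) and miR-222 (right) on each array, relative to the array's 75th percentile, on axes from 0. Points are arrays numbered by replicate, and bars are the mean ± SD of 4 arrays; for miR-222, vehicle control replicate 1 at 0.276 stands above the other arrays, which lie between 0.226 and 0.241.

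Across all 268 tested miRNAs, limma called 0 at an adjusted p of 0.05 (0%), and 15 (5.6%) reached 0.05 without adjustment. By the size of p, miR-222 ranked 77 and miR-221 193 among them. Groups that did not overlap were found for 4 miRNAs (1.49%), and neither member was among them. Of the tested miRNAs 85 were higher and 176 lower, and the rest lay on every array at the floor, the lowest signal allowed. The median log2 difference of all tested miRNAs was -0.046. Relative to that median, miR-221 was at 0.015 and miR-222 at -0.032, so both lay near the middle of the distribution: 56.7% of the tested miRNAs had a lower difference than miR-221 and 38.4% a lower one than miR-222. The median shift of all miRNAs was -0.12 without scaling between arrays and 0.038 with normexp background correction.

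The pair was also compared with itself, by taking log2 miR-221 minus log2 miR-222 on each array, a quantity in which division by an array's percentile cancels. It measured 0.91, 1.00, 0.93 and 1.17 on vehicle control replicates 1 to 4 and 0.98, 1.15, 1.07 and 1.01 on Printex 90 replicates 1 to 4. Vehicle control replicates 1 and 3 were the lowest and vehicle control replicate 4 the highest, and all Printex 90 arrays lay between them. The group means were 1.00 ± 0.12 and 1.05 ± 0.07 (SD, n = 4 each), a difference of 0.047 (exact permutation p = 0.514, 2-sided). Over these 3 exact tests (each member and their ratio), the Benjamini-Hochberg adjusted p was 0.629 each, and the smallest raw p that 4 arrays against 4 can give is 0.0286. An unequal difference of the 2 miRNAs was therefore not detected. The value of this quantity on an array depends on the probes, so it does not give the molar ratio of the 2 miRNAs.

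Each miRNA was read by 2 probes of 10 spots, and all 308 spots kept on the 8 arrays were well above background. The probes of a miRNA gave the same direction. For miR-221 the log2 difference was -0.069 with probe A_54_P2640 (exact permutation p = 0.229, 2-sided) and -0.010 with A_54_P3830 (exact permutation p = 0.857). For miR-222 it was -0.092 with A_54_P2643 (exact permutation p = 0.257) and -0.068 with A_54_P2644 (exact permutation p = 0.143). Adjusted over these 4 probes, the exact permutation p was 0.343 for all but A_54_P3830, which stayed at 0.857.

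Spots of a probe repeated closely: the median coefficient of variation over the kept spots was 3.4% to 4.35% for the 4 probes, and the highest on any array was 9.09% (A_54_P2644, vehicle control replicate 4). The unscaled intensities were 100.4 to 150.8 units for A_54_P2640 and 183.7 to 268.4 for A_54_P3830, and 56.5 to 81.4 for A_54_P2643 and 81.4 to 109.8 for A_54_P2644. The high value of miR-222 on vehicle control replicate 1 was present in both of its probes, at 0.118 against 0.0925 to 0.101 on the other arrays with A_54_P2643, and at 0.158 against 0.134 to 0.141 with A_54_P2644.

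**Figure D2:**
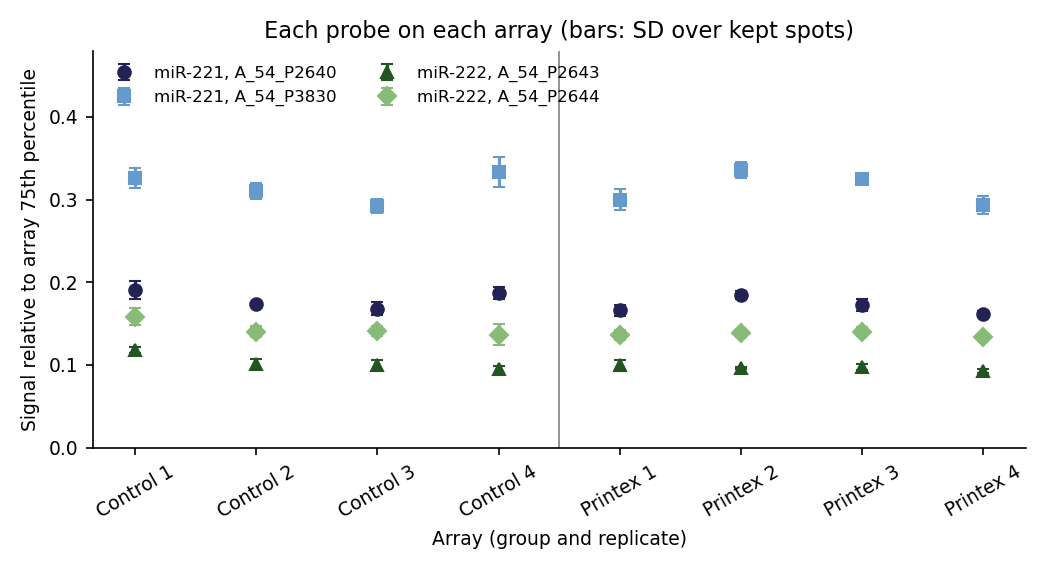
Signal of each of the 4 probes on each array, relative to the array's 75th percentile; bars are the SD over the kept spots. The probes of a miRNA sit at different levels, and for miR-222 both are highest on vehicle control replicate 1 (0.118 and 0.158).

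Of the 320 spots of the pair, 12 carried an outlier flag and were left out, 5 for miR-221 and 7 for miR-222. Those of miR-221 measured 0.932 to 1.11 times the median of the kept spots of their probe. One miR-222 spot on Printex 90 replicate 2 measured 3956 units where the kept spots of A_54_P2643 had a median of 69.7, which is 56.7 times as much. With flagged spots kept, the miR-222 difference was 0.35 (SE 0.40, limma adjusted p = 0.857). With all flagged spots kept except that brightest one, it was -0.079 (limma adjusted p = 0.844), an alternative chosen after the data were seen. The turn in direction thus rested on a single spot.

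After scaling by the percentile, variation between arrays was small for both members. Over the 8 arrays miR-221 ranged by 1.14-fold and miR-222 by 1.22-fold, where the median of the 240 miRNAs detected on all arrays was 1.31-fold. Before scaling, miR-221 ranged by 1.45-fold and miR-222 by 1.39-fold. The SD within groups was 0.086 log2 units for miR-221 and 0.082 for miR-222, against a median of 0.123, and 24.6% and 23.3% of these miRNAs had a smaller one. The 95% limma intervals of the differences accordingly reached from -0.17 to 0.11 for miR-221 and from -0.21 to 0.055 for miR-222 on the log2 scale. The SEs of both differences were larger under the other scalings, at 0.104 for miR-221 and 0.105 for miR-222 with quantile normalization.

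Whether miR-221 and miR-222 rose and fell together from array to array depended on the scaling. Before scaling, miR-221 (289.1 to 419.2 units) and miR-222 (137.9 to 191.2 units) had r = 0.88 over the 8 arrays (exact permutation p = 0.00513). Those unscaled signals also followed the array's 75th percentile, with r = 0.94 for miR-221 and 0.85 for miR-222, and the median r with the 238 other miRNAs detected on all arrays was 0.77 and 0.72. After division by the percentile the pair had r = 0.36 (exact permutation p = 0.471, adjusted p = 0.659 over 7 relations) and a Spearman rho of 0.024 (exact permutation p = 0.977, adjusted p = 0.977). It had r = 0.30 for the deviations from the group means. Without the 2 arrays farthest from the median of miR-221 (vehicle control replicate 3 and Printex 90 replicate 4), r was 0.21, and without vehicle control replicate 1 it was -0.013. With quantile normalization r was 0.92 (exact permutation p = 0.00506).

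**Figure D3:**
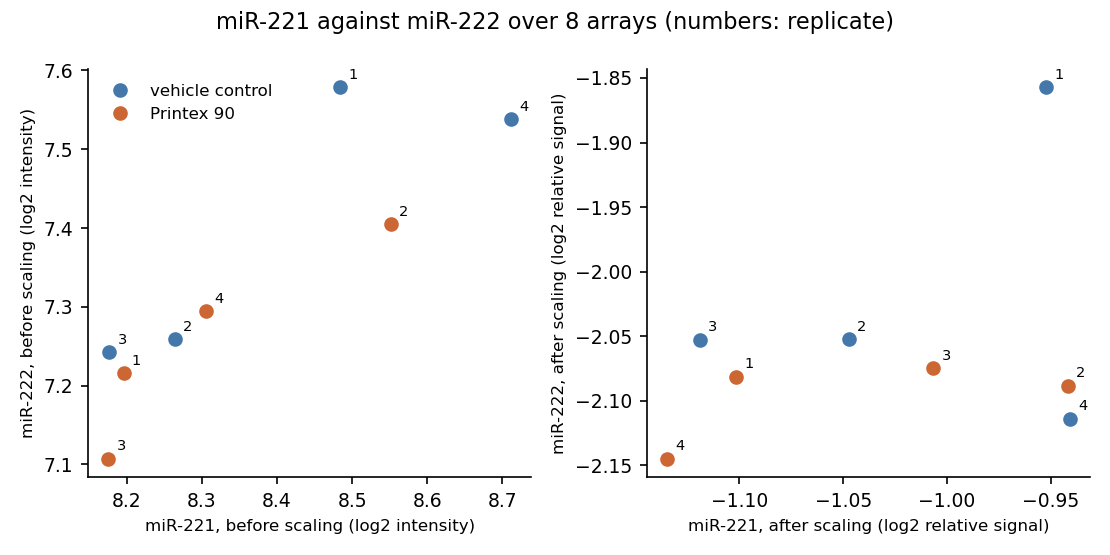
miR-221 against miR-222 on the 8 arrays, before scaling (left, log2 intensity) and after division by the array's 75th percentile (right, log2 relative signal); points are arrays numbered by replicate and coloured by group. The points rise together on the left (r = 0.88) and do not on the right (r = 0.36), where vehicle control replicate 1 lies apart.

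After scaling, 87 miRNAs of the 238 others followed miR-221 across the arrays more closely than miR-222 did, and 71 followed miR-222 more closely than miR-221 did. The 3 miRNAs whose log2 signal was most like the mean of the pair were miR-93, of the miR-106b-25 cluster (r = 0.92), miR-199a-3p, abundant in mesenchymal cells (r = 0.92), and miR-125a-5p (r = 0.90), each over 8 arrays that share the scaling. These correlations were picked as the highest of 238 and are a description. Their log2 differences were -0.063, -0.039 and -0.047 (limma adjusted p = 0.767, 0.768 and 0.767). The probes of each member were set against each other as well: r was 0.89 between those of miR-221 (exact permutation p = 0.00759, adjusted p = 0.0266) and 0.96 between those of miR-222 (exact permutation p = 0.00402, adjusted p = 0.0266). Spearman's rho was 0.81 (exact permutation p = 0.0218, adjusted p = 0.152) and 0.71 (exact permutation p = 0.0576, adjusted p = 0.202). Without the 2 arrays farthest from the median of the first probe, r stayed at 0.90 for miR-221 and was 0.46 for miR-222, so the latter rested on vehicle control replicate 1 and Printex 90 replicate 4.

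Other miRNAs of the vessel wall were set beside the pair. Of the endothelial list 14 of 15 miRNAs were tested, of which 3 were higher and 11 lower after Printex 90 (median -0.073 on the log2 scale), and 0 passed in limma (1 at an unadjusted p under 0.05). Over all 268 tested miRNAs 85 were higher and 176 lower (median -0.046), 0 passed, and 5.6% had an unadjusted limma p under 0.05. miR-126-3p, the most used endothelial marker, measured 40.6 ± 2.62 in controls and 37.9 ± 3.53 after Printex 90 (log2 difference -0.10, limma adjusted p = 0.754), and the other strand of its hairpin, miR-126-5p, 0.656 ± 0.0442 and 0.574 ± 0.091 (-0.20, limma adjusted p = 0.706). The smallest p of the list belonged to miR-31, also an epithelial miRNA, at 0.164 ± 0.00968 and 0.189 ± 0.0145 (0.20, limma adjusted p = 0.706). It was followed by miR-101a at 1.84 ± 0.0784 and 1.70 ± 0.0973 (-0.12, limma adjusted p = 0.706).

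Of the smooth muscle and mesenchymal list 13 of 16 miRNAs were tested, 3 higher and 10 lower, with a median of -0.043 and 0 calls in limma (1 at an unadjusted p under 0.05). All 268 tested miRNAs had 85 higher and 176 lower, a median of -0.046, 0 calls, and 5.6% at an unadjusted limma p under 0.05. miR-143 and miR-145, which maintain the contractile state of smooth muscle, measured 2.11 ± 0.232 and 0.408 ± 0.0533 in controls. They measured 2.08 ± 0.47 and 0.384 ± 0.108 after Printex 90 (log2 differences -0.043 and -0.12, limma adjusted p = 0.918 and 0.826). The SDs of both were larger relative to their means than those of miR-221 and miR-222. The smallest p of the list belonged to miR-21 (log2 difference 0.49, limma adjusted p = 0.203), which is induced in many injured tissues and cell types, and to miR-146a (0.24, limma adjusted p = 0.706), which the leukocyte list also holds. The endothelial list and this one share miR-10a and miR-24. Summed over the tested members, the endothelial list ran from 89.2 to 96.8 in controls and from 80.9 to 96.6 after Printex 90. The smooth muscle and mesenchymal list ran from 52.8 to 55.5 and from 54.5 to 59.4, and without miR-21, which measured 12.8 ± 0.932 in controls and 18.0 ± 1.79 after Printex 90, its other 12 members ran from 40.3 to 42.1 and from 36.8 to 41.8.

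**Figure D4:**
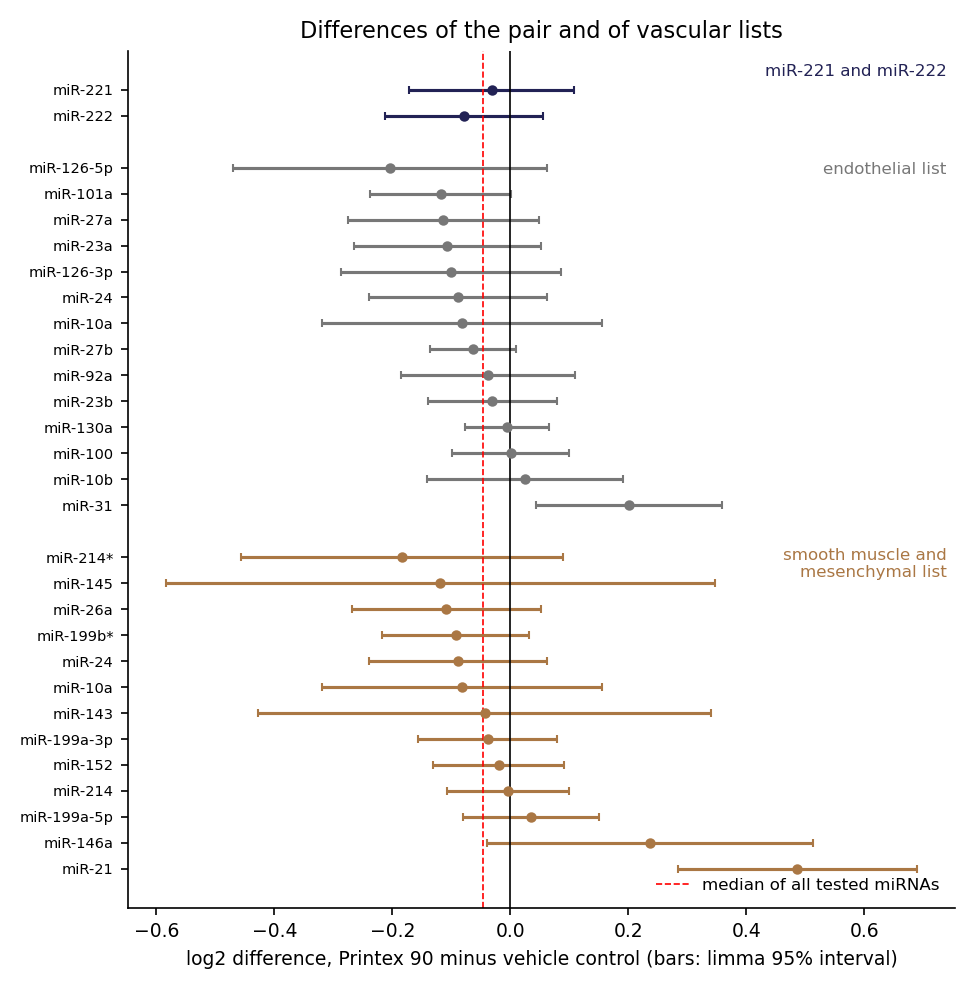
Log2 difference (Printex 90 minus vehicle control) with its limma 95% interval for miR-221 and miR-222 and the tested members of the endothelial list (14) and of the smooth muscle and mesenchymal list (13). The dashed line is the median of all tested miRNAs, -0.046, and the intervals of miR-221 and miR-222 both span it and 0.

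Markers of other cells that lung RNA can hold were summed in the same way. The erythroid list summed to between 19.7 and 46.9 in controls and between 21.7 and 30.6 after Printex 90, with 3 of 3 tested members lower (median log2 difference -0.25). Its first member, miR-451, measured 28.5 ± 10.3 and 24.0 ± 4.55 (limma adjusted p = 0.775). The striated muscle list summed to between 0.380 and 1.91 and between 0.313 and 3.05, with 4 of 4 tested members lower (median -0.74), among them miR-1 at -0.77 (SE 0.91, limma adjusted p = 0.767). The leukocyte list had 3 higher and 6 lower of 9 tested (median -0.020), with miR-142-3p at -0.020 and sums of 9.29 to 11.4 and 9.94 to 11.0. The epithelial list had 10 higher of 12 tested (median 0.056), with miR-200a at 0.039 and sums of 11.8 to 14.7 and 12.9 to 17.2. Of its other tested members miR-96 was lower (-0.065), and miR-182 lay at the floor on every array, so it had no difference. Among all 268 tested miRNAs 85 were higher and 176 lower (median -0.046). In limma 0 members of these 4 lists were called, as were 0 of all tested miRNAs. An unadjusted p under 0.05 was found for 2, both among the 9 tested of the leukocyte list, where 5.6% of all tested miRNAs had one. They went opposite ways: miR-155 of activated leukocytes was at 0.50 and miR-181b at -0.096 (limma adjusted p = 0.706 each), and both were named after their values were seen. The part of cell content in the values of the pair was not tested.

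The direction of the small differences of the pair changed with the processing, while neither member passed an adjusted p of 0.05 under any of 28 alternatives. The log2 difference of miR-221 ran from -0.10 without scaling to 0.048 with quantile normalization, and that of miR-222 from -0.15 without scaling to 0.35 with flagged spots kept. For miR-221 the limma adjusted p was 0.699 to 1 over these alternatives, and for miR-222 it was 0.499 to 1.

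**Figure D5:**
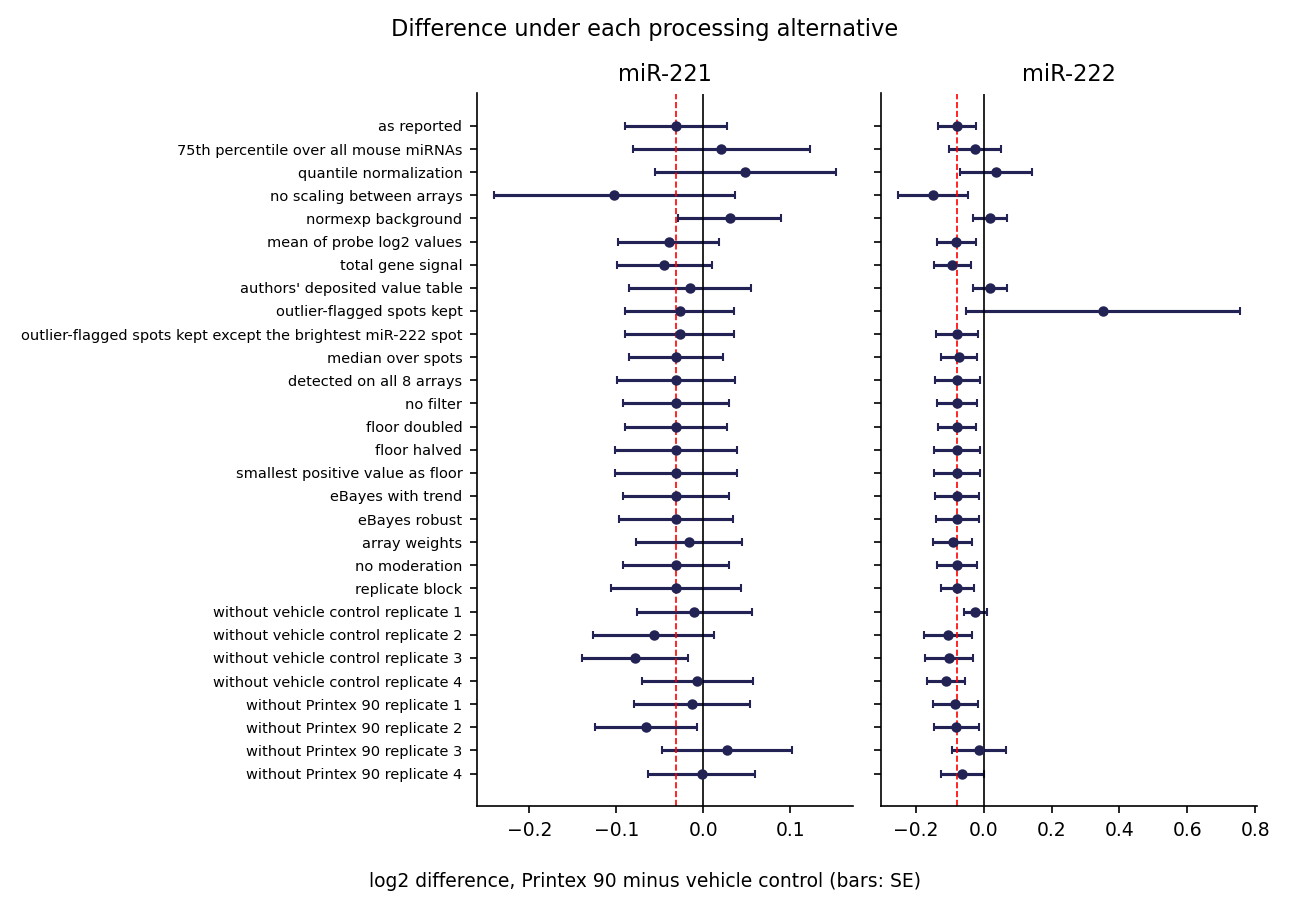
Log2 difference (Printex 90 minus vehicle control) of miR-221 (left) and miR-222 (right) as reported and under each of 28 alternatives, with its SE; the horizontal axes differ between the panels. The dashed line is the reported value, -0.031 and -0.078, and the point of miR-222 at 0.35 is the setting that keeps outlier-flagged spots.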

How the data were processed

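RNA was prepared with a small RNA isolation kit (miRvana) and labelled with Agilent's kit for miRNA arrays, per the labels' protocols. The spot intensities come from Agilent Feature Extraction 10.7.3.1 with background subtracted within each array, per the file headers, and the deposited flags mark outlier, saturated and well-above-background spots. The table of log2 values that the authors deposited comes with no statement of how it was made. Quantile-normalized log2 median spot signals, summarised by the median over spots, correlated with it at r = 1 on every array (column medians 5.41 to 5.43), and the table served only as an alternative.

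Control and outlier-flagged spots were left out (2.25% to 2.76% of spots flagged per array), spots of a probe were averaged and probes of a miRNA summed. Detection on an array required 50% or more of a probe's kept spots to be well above background, for 1 probe or more. Signals were scaled by the 75th percentile over mouse miRNAs detected on all arrays (580.8 to 804.7 intensity units), floored at 0.0388 (the 5th percentile of detected signals) and log2 taken. Precision is limited by the number of arrays.

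The 268 tested miRNAs were fitted with limma 3.58.1 (R 4.3.3), 2-sided, Benjamini-Hochberg adjusted over all tested. This step was tested on simulated data with known shifts and independent noise for each miRNA. Effects shared by the miRNAs of an array, and the floor, were not simulated. Single values were compared with exact permutation tests over 70 assignments. Members, lists, tests and alternatives were chosen with earlier results of these data known. miRNAs named beside the pair were the 3 most like its mean, miR-126-3p, miR-126-5p, miR-143, miR-145, the 2 smallest-p members of both vascular lists and the first tested member of each other list. Other array names with the same seed were to be named as well, but the array held none. Normexp used the median spot signal with an offset of 50, since the files used here give no mean. Alternatives covered scaling, background, probe summary, spots, filter, floor, spread model, the deposited table, the replicate number and leaving out each array.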

Additional observations from a re-analysis of the deposited data

Results flagged for a closer look

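Of 44 groups of 4 arrays, over the named miRNAs, the 4 probes and the ratio of the pair, 2 had an array whose gap to the nearest other divided by the group's range exceeded Dixon's 95% limit. Chance gives this in about 1 of 20 groups, or 2.2. miR-93, the miRNA most like the pair, was high on vehicle control replicate 1 (log2 relative signal -0.79, next highest -1.02, gap 0.872 of the range), the array on which miR-222 was also highest. Because miR-93 was picked for its correlation with the mean of the pair, this match is not independent of miR-222. miR-126-3p was low on vehicle control replicate 2 (5.20, next lowest 5.38, gap 0.893 of the range). Neither miR-221, miR-222, their ratio nor their probes exceeded this limit in either group.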

How the results depend on the processing

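The alternatives in filter, floor, replicate block and spread model, other than array weights, left the differences of both members unchanged. They could not turn a direction and do not bear on its stability. With these counted, the miR-221 difference kept its direction under 24 of 28 alternatives and the miR-222 difference under 24 of 28. For miR-221 it turned to 0.021 with the percentile over all mouse miRNAs, 0.048 with quantile normalization and 0.030 with normexp, and for miR-222 to 0.036 with quantile normalization, 0.019 with normexp, 0.019 in the authors' deposited value table and 0.35 with flagged spots kept. The cause of the turns was not tested, other than for the last. Leaving out 1 array gave -0.079 to 0.027 for miR-221 (above 0 without Printex 90 replicate 3) and -0.11 to -0.014 for miR-222. The difference of their ratio turned to -0.035 in the deposited table and to -0.38 with flagged spots kept, and was 0.014 to 0.10 without 1 array. Their correlation passed an exact p of 0.05 at 0.74 with the percentile over all mouse miRNAs, 0.88 without scaling, 0.92 with quantile normalization and 0.74 in the deposited table, and ran from -0.013 to 0.55 without 1 array. Over all tested miRNAs 1 call was made with the smallest positive value as floor, and 0 to 2 without 1 array (2 without Printex 90 replicate 3), none of them miR-221 or miR-222.

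Deviations of same-numbered arrays correlated at -0.13, -0.38, -0.47 and 0.44 for replicates 1 to 4. Arrays with different numbers ran from -0.83 to 0.70. With a single correlation per number this cannot decide whether the numbers pair the samples, and the labels state no pairing. With the replicate block the differences were -0.031 for miR-221 (limma adjusted p = 0.890) and -0.078 for miR-222 (limma adjusted p = 0.744), with 0 calls over all miRNAs, a ratio difference of 0.047 and a correlation of 0.50. All kept spots of both members were well above background, but a herpesvirus miRNA gave a signal of the size of miR-222 (0.241 in both groups), so the specificity of miR-222 at its level is limited. The intervals are not limits of detection, and with 4 arrays per group larger differences can also go uncalled. For example, miR-21 at a log2 difference of 0.49 had a limma adjusted p of 0.203.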

Other observations

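The scaled signal of miR-221 was higher on arrays with more detected miRNAs, a relation looked at after the values were seen. The arrays with 274 to 283 detected mouse miRNAs (vehicle control replicates 1 and 4, Printex 90 replicate 2) had miR-221 at 0.517 to 0.521, and those with 248 to 259 at 0.455 to 0.498. Over the 8 arrays r was 0.72 (exact permutation p = 0.0571, adjusted p = 0.133 over 7 relations) and Spearman's rho 0.54 (exact permutation p = 0.176, adjusted p = 0.303). Without vehicle control replicate 4 and Printex 90 replicate 2, r was 0.37, so the relation rests on those arrays, and for miR-222 the same omission gave 0.80. For miR-222, over all 8 arrays, r was 0.16 (exact permutation p = 0.791, adjusted p = 0.832) and rho -0.28 (exact permutation p = 0.505, adjusted p = 0.589). With the array's log2 75th percentile, r was 0.50 for miR-221 (exact permutation p = 0.202, adjusted p = 0.353) and -0.092 for miR-222 (exact permutation p = 0.832, adjusted p = 0.832). Spearman's rho was 0.50 (exact permutation p = 0.216, adjusted p = 0.303) and -0.52 (exact permutation p = 0.197, adjusted p = 0.303). Without vehicle control replicate 4 and Printex 90 replicate 3, r was 0.61 and 0.088.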
